A study of Rattus norvegicus with 6 samples.

Results

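Hypoxia-inducible genes were described across 6 beadchip arrays of cultured rat astrocytes. The 9 genes of the list were Car9, Adm, Ndrg1, Slc16a3, Vegfa, Egln3, Bnip3, Pfkfb3 and Hk2. They were chosen by gene symbol, with earlier results of these data known. The platform annotation gave 8 of them a probe each, out of 22523 probes on the array and 13337 named genes. Egln3 had no probe under its symbol, and Hk2 was above background on only 1 of the 6 arrays, so 7 members were tested. Both groups were primary astrocytes of transgenic rats in which the GFAP promoter drives tTA, a transcription factor that is active once doxycycline (Dox) is withdrawn. The tTA group (GFAP-tTA, 3 arrays) carried that transgene alone. The M337V group (GFAP-tTA/TRE-TDP43 M337V, 3 arrays) also carried a mutant TDP-43 transgene that tTA switches on. Each genotype had 1 array at 3, 4 and 6 days after Dox withdrawal. The labels give no line, animal number or separate cultures, so p-values measure how far the genotype difference varied between days. If each genotype was 1 culture, genotype and culture cannot be told apart.

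Cells short of oxygen stabilise the alpha subunits of the hypoxia-inducible factors (HIF), which pair with ARNT and bind a short DNA core in the promoters and enhancers of their targets. With oxygen present, prolyl hydroxylases of the EGLN family mark the alpha subunits for destruction through VHL. The targets supply glycolysis, export lactate and protons, signal to blood vessels and remove mitochondria. In the brain, astrocytes are a known source of VEGF and export lactate to their neighbours.

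The core of the HIF binding element is ACGTG or GCGTG. It was searched on both strands in RefSeq promoter windows (build GRCr8) that run from 250 bases before to 50 bases after each start. The table held 9 windows for 8 members and none for Ndrg1. A match was found for 3 of these 8 members, Car9, Bnip3 and Pfkfb3. Of all 33469 windows 41.6% held a match (19.3% for ACGTG and 29.7% for GCGTG), so a match did not set the members apart. The windows of Car9 and Adm, the members with the largest differences, and of Bnip3 and Pfkfb3, which hold the core but did not pass the test, are shown 5′ to 3′ on the gene's strand, with matches in capitals.
Car9 (chr5:62558774-62559073, plus strand): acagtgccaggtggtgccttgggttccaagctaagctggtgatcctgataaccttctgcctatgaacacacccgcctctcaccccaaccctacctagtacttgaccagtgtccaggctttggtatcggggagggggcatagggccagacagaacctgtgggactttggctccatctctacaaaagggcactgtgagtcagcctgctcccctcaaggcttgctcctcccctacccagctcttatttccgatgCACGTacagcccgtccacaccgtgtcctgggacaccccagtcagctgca
Adm (chr1:174179950-174180249, plus strand): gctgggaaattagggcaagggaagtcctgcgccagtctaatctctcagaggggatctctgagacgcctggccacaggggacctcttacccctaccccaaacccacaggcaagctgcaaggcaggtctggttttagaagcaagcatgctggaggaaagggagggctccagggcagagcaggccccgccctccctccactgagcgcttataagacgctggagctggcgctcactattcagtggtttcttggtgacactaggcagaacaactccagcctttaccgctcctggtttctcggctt
Bnip3 (chr1:203154913-203155212, minus strand): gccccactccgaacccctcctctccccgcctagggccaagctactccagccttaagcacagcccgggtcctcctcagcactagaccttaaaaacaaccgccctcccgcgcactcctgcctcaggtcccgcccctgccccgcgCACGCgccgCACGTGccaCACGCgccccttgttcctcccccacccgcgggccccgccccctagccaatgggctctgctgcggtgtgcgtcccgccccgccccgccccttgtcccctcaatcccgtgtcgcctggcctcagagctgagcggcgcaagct
Pfkfb3 (chr17:71944683-71944982, plus strand): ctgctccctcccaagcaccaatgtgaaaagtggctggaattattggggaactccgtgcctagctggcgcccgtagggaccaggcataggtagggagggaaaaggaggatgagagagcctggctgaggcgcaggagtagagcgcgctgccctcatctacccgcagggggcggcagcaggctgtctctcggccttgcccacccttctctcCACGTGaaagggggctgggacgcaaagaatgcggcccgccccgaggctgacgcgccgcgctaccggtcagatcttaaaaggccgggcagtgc
The Car9 window held 1 core, ACGTG on the opposite strand, beginning at base 2 of the transcript. The Bnip3 window held 4 matches, the first 108 bases and the last 90 bases before the start. Among them were ACGTG 99 and 98 bases before the start, on opposite strands and overlapping in 1 palindrome. The Pfkfb3 window held such an overlapping pair as well, 42 and 41 bases before the start. The letters shown for Adm hold neither core, nor did the windows of Slc16a3, Vegfa, Egln3 and Hk2. A match of 5 letters is a description of this window and not a binding site.

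Astrocyte markers fitted the label: all 12 tested were detected on every array, 2 rose and 2 fell, and their summed signal was 104671 to 119601 on tTA and 119881 to 127019 on M337V arrays. The rat Tardbp probe differed by 0.23 ± 0.10 (log2, SE) between genotypes without passing (adjusted p = 0.187), and the sources do not say whether it can bind the transgene's transcript. Markers of other cells moved with the genotype. The summed signal of 13 microglia and macrophage markers was 351 at day 3, 361 at day 4 and 649 at day 6 in tTA cells, against 8000, 9744 and 26113 in M337V cells, and 11 of the 13 rose. Of these 13, 6 were below background on all tTA arrays. These 6 met the filter of detection on at least 3 arrays only through M337V, so the filter set their direction. The summed signal of 8 fibroblast and meningeal markers was 39701 to 56404 on tTA and 17612 to 30384 on M337V arrays, where 5 fell and 2 rose. Of 8 oligodendrocyte lineage markers 6 rose, of 6 ependymal cilium markers 5 rose, and of 9 neuron markers 5 rose, while none of these 3 lists had a fall. Of 4 endothelial markers 2 rose and 1 fell. Below background on all tTA arrays, and so kept likewise, were 1 endothelial, 1 neuron and 2 fibroblast and meningeal markers. Of all genes tested 9.75% rose and 9.85% fell. Mean bead signal per array was 377 to 554, lowest on the M337V array of day 3.

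Some of the hypoxia-inducible genes were lower in M337V astrocytes. Car9 fell at least 4.80-fold in the main setting, given as a bound since it was not well above background on 2 of the 3 M337V arrays. Without background correction its log2 difference was only -1.03. Adm and Ndrg1 fell 2.65-fold and 1.95-fold. Slc16a3 was 1.77-fold lower without passing, and Vegfa, Pfkfb3 and Bnip3 differed by 1.25-fold or less. A gene passed at an adjusted p under 0.05 over the 7580 genes tested with limma, with day as a factor. Of the 7 members 3 passed, all lower in M337V, against 9.85% of all genes called lower and 9.75% called higher (19.6% in all). Since the members were chosen with earlier results of these data known, this count cannot show that hypoxia-inducible genes fell more often than others. The fitted difference was below 0 for all 7 members, with a median of -0.82, and for 4345 of the 7580 genes, with a median of -0.05. Of all called genes 49.7% were higher, and this share was 64.5% with median scaling, 59.2% with cyclic loess and 39.7% with the deposited values. Whether fewer cells of a type or less RNA per cell lies behind a lower signal cannot be told apart in such bulk RNA. What part the marker changes above have in these differences was not tested.

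**Figure D1:**
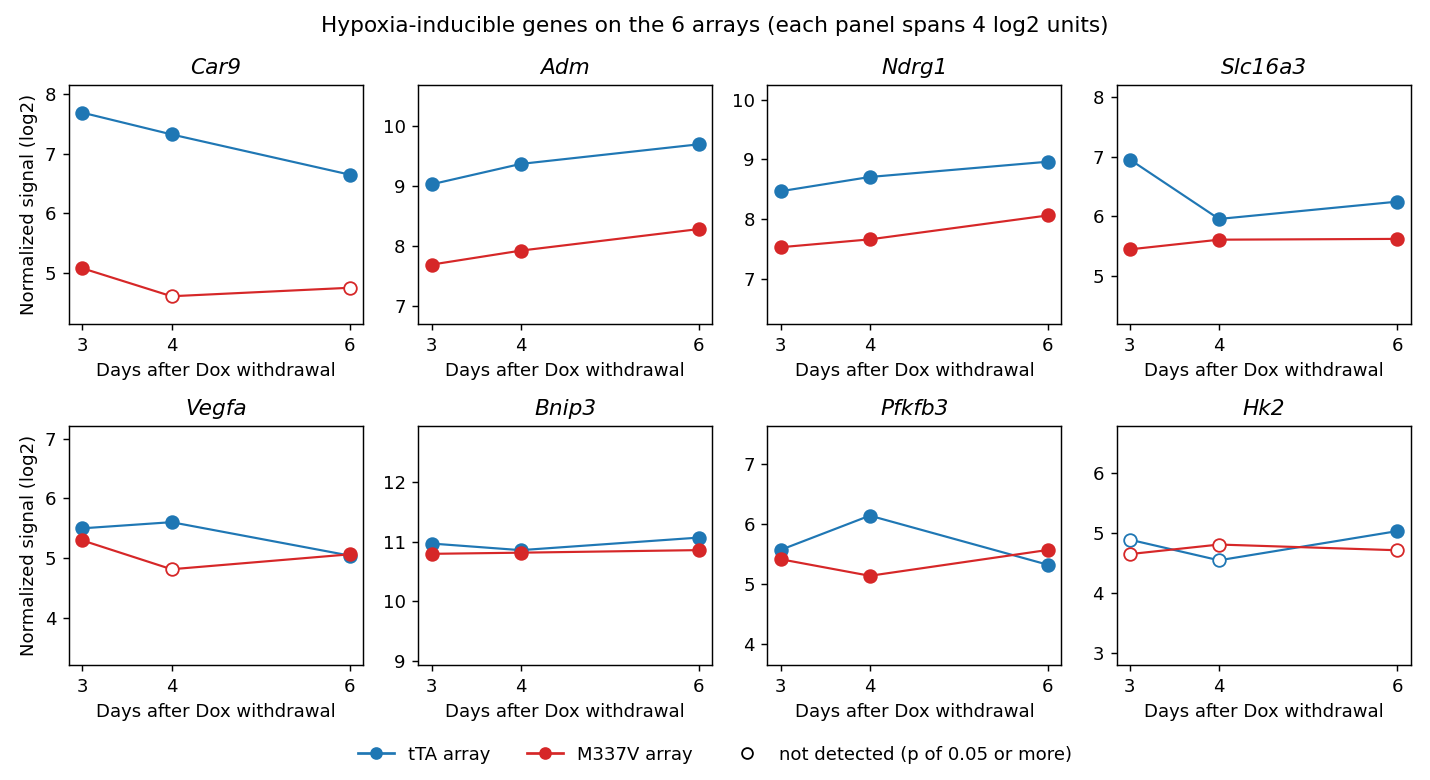
Normalized signal (log2) of the 8 members with a probe against days after Dox withdrawal, with 1 point per array, tTA in blue and M337V in red, and open points where the probe was not above background. Car9, Adm, Ndrg1 and Slc16a3 are lower on every M337V array than on any tTA array, as are 19.6% of all genes tested. The other 4 overlap.

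Car9 encodes carbonic anhydrase IX, a membrane enzyme that handles acid outside the cell and a classic HIF target. Its level (log2 of normalized signal, as for all levels that follow) was 7.69, 7.32 and 6.65 in tTA cells at days 3, 4 and 6. The M337V cells read 5.08, 4.62 and 4.76. All tTA arrays lay above all M337V arrays. Of the M337V arrays only that of day 3 detected the probe, so the M337V level on days 4 and 6 was not well above background. Car9 met the filter of detection on at least 3 arrays through its 3 tTA arrays, so the filter bore on its direction. The fitted log2 difference was -2.40 ± 0.18 (SE, n = 3 days, adjusted p = 0.00151). With undetected arrays set at their lowest detected signal, Car9 was at least 4.80-fold lower in the main setting. This bound does not hold for other processing. Without background correction the difference was -1.03, with the deposited values -1.18 and with an offset of 50 -1.57, all past the threshold.

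Adm encodes adrenomedullin, a secreted peptide that widens blood vessels. Its level was 9.03, 9.37 and 9.70 in tTA cells at days 3, 4 and 6, against 7.68, 7.92 and 8.28 in M337V cells. The genotypes did not overlap, and the difference was nearly equal on the 3 days, at -1.34, -1.45 and -1.42. Its fitted value was -1.40 ± 0.10 (SE, adjusted p = 0.00113), rank 48 among the falls of 7580 genes.

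Ndrg1 encodes a cytoplasmic protein induced by hypoxia and linked to differentiation and to Schwann cell myelin. Its level was 8.47, 8.71 and 8.96 on the tTA arrays and 7.53, 7.66 and 8.06 on the M337V arrays of days 3, 4 and 6. Again every M337V array was below every tTA array, by -0.94, -1.04 and -0.90 on the log2 scale within days. The fitted difference was -0.96 ± 0.10 (SE, adjusted p = 0.00327), rank 139. Adm and Ndrg1 followed each other over the 6 arrays (r = 0.996), more closely than either followed Car9 (0.827 and 0.799). These correlations describe 6 arrays that share genotype and day.

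Slc16a3 encodes MCT4, which exports lactate from glycolytic cells. Its level was 6.95, 5.96 and 6.25 on the tTA arrays and 5.45, 5.61 and 5.62 on the M337V arrays. The groups did not overlap, as was so for 4 of 7 members and for 19.6% of all genes with M337V lower. The gap was uneven: it was -1.50 on day 3, where the tTA array was highest, and -0.35 and -0.62 on days 4 and 6. The fitted difference of -0.82 ± 0.23 (SE) missed the threshold (adjusted p = 0.0607, 95% interval -1.40 to -0.25). Without day 3 it was -0.49 (adjusted p = 0.0814). It passed in 6 of 15 alternatives, over which the adjusted p ran from 0.0132 to 0.0929 and the difference from -1.06 to -0.34. The probe was dim on the M337V arrays. Its signal before scaling was 196.8, 138.9 and 147.5 on the tTA arrays and 104.7, 142.7 and 147.8 on the M337V arrays. The lower M337V level of days 4 and 6 thus appeared only after the arrays were scaled. The difference was -0.34 without background correction and -0.41 with the deposited values, both past the threshold.

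**Figure D2:**
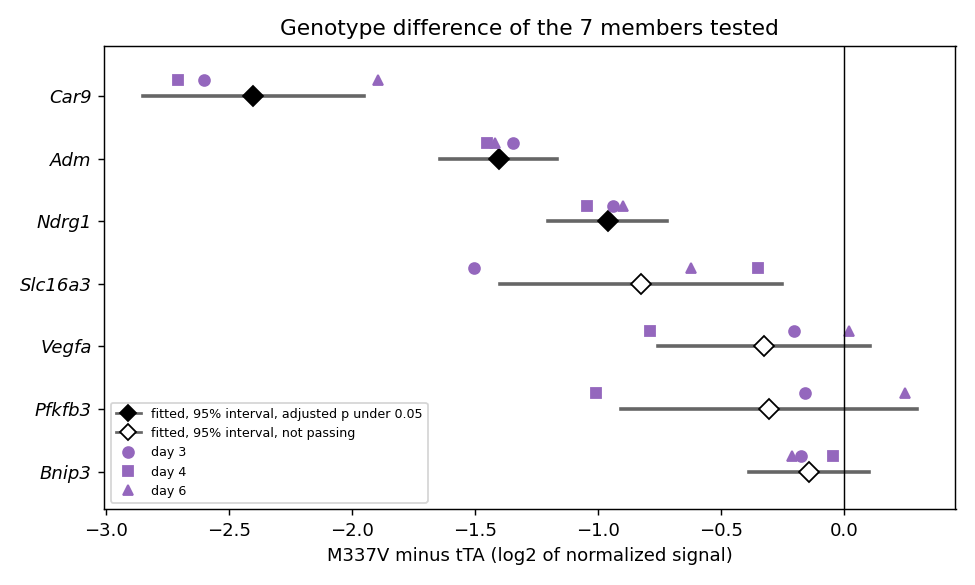
M337V minus tTA (log2 of normalized signal) of the 7 members tested: diamonds are fitted values with 95% intervals, filled where the adjusted p was under 0.05, and purple symbols are the differences of single days. Adm and Ndrg1 show nearly the same difference on each day, whereas the days of Slc16a3 and Pfkfb3 spread by more than 1 log2 unit.

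Vegfa encodes the vascular endothelial growth factor A. Its probe was dim, at 5.50, 5.60 and 5.04 on the tTA arrays and 5.29, 4.81 and 5.06 on the M337V arrays, the day 4 value not above background. The groups overlapped. The difference was -0.32 ± 0.17 (SE, adjusted p = 0.25, 95% interval -0.75 to 0.11), and -0.09 without day 4 (adjusted p = 0.782). Pfkfb3 encodes an enzyme that makes fructose 2,6-bisphosphate, an activator of glycolysis. It stood at 5.57, 6.14 and 5.32 on the tTA arrays and 5.41, 5.14 and 5.57 on the M337V arrays, which overlapped. The difference of -0.31 ± 0.24 (SE, adjusted p = 0.427, 95% interval -0.91 to 0.30) rested on day 4, at -1.01, and was 0.05 without that day (adjusted p = 0.909). M337V was the higher on day 6, for Vegfa by only 0.02 and for Pfkfb3 by 0.25, so these dim probes show no direction common to all 3 days.

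Bnip3 encodes a mitochondrial protein that promotes mitophagy. Its level was 10.97, 10.86 and 11.07 on the tTA arrays and 10.80, 10.82 and 10.86 on the M337V arrays. The difference was below 0 on all 3 days, as for 5 of 7 members and 32.2% of all genes, but the groups overlapped. It was -0.14 ± 0.10 (SE, adjusted p = 0.367), with a 95% interval of -0.39 to 0.10 that leaves out a fall as large as that of Ndrg1. Hk2 encodes hexokinase 2, the inducible first enzyme of glycolysis. Its probe read 4.89, 4.54 and 5.03 on the tTA arrays and 4.65, 4.81 and 4.71 on the M337V arrays, and only the tTA array of day 6 detected it. No fold is given for it. Without the filter on dim probes its difference was -0.10 ± 0.14 (SE, adjusted p = 0.77).

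The design also asks how the difference changed with time. Single days have no replicate and no test. At least 2-fold lower in M337V were Car9, Adm and Slc16a3 on day 3 (2.33% of all genes detected on either array), Car9, Adm, Ndrg1 and Pfkfb3 on day 4 (1.77%) and Car9 and Adm on day 6 (2.26%), each of 7 members. None was at least 2-fold higher. The Car9 gap was -2.60, -2.71 and -1.89 on days 3, 4 and 6. This gap was narrowest on day 6, where the tTA level was lowest, and the M337V probe was near background throughout. The part of background in the change of the gap was not tested. The Car9 slope of 0.26 ± 0.10 per day (SE) did not pass (adjusted p = 0.476), nor did the slope of any other member (adjusted p 0.694 to 0.967). Of all genes 0% passed for the slope with limma, 741 had an unadjusted p under 0.05, and Car9 was the only member among them. The microglia markers rose from 8000 to 26113 in summed signal on the M337V arrays between days 3 and 6, over which the gap of Adm went from -1.34 to -1.42, that of Ndrg1 from -0.94 to -0.90, that of Slc16a3 from -1.50 to -0.62 and that of Car9 from -2.60 to -1.89. The part of those cells in the gaps was not tested.

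No member passed for a change over the days that both genotypes shared. From day 3 to day 6 Adm was up by 0.67 on tTA and 0.59 on M337V arrays, and Ndrg1 by 0.49 and 0.53. Car9 changed by -1.04 on tTA arrays, and no change is given for M337V, whose day 6 array did not detect it. Over both genotypes the day 6 minus day 3 difference was 0.63 ± 0.12 for Adm (SE, adjusted p = 0.0564), 0.51 ± 0.12 for Ndrg1 (adjusted p = 0.0857) and -0.68 ± 0.22 for Car9 (adjusted p = 0.157). None of the 7 members passed with limma, 3 had an unadjusted p under 0.05, and 2.84% of all genes passed. The call depended on the processing. Adm and Ndrg1 passed in 6 of 11 alternatives each, with an adjusted p of 0.00385 to 0.135 for Adm and 0.0201 to 0.18 for Ndrg1, and Car9 passed in 1 of 10, with the deposited values (0.023).

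None of the genes that sense oxygen passed after adjustment. Of 7 genes tested of the list of HIF subunits and oxygen sensing, 0 passed with limma (median -0.11), against 19.6% of all genes. Of the 7, 3 had an unadjusted p under 0.05, and under 4 of the 15 alternatives 1 gene passed. Hif1a, the main alpha subunit, was 9.95, 9.67 and 9.65 on the tTA arrays and 9.88, 9.83 and 9.97 on the M337V arrays. Its difference was 0.14 ± 0.11 (SE, adjusted p = 0.443). Epas1, which encodes HIF-2 alpha, differed by 0.03 ± 0.18 (adjusted p = 0.928), and Vhl by 0.07 ± 0.09 (0.66). The prolyl hydroxylase Egln2 (-0.30 ± 0.12, adjusted p = 0.141) and the asparagine hydroxylase Hif1an (-0.39 ± 0.14, adjusted p = 0.111) were not called either. Both were lower on every M337V array than on any tTA array, as were 19.6% of all genes. The M337V array of day 6 did not detect Hif1an. Arnt was below the detection filter, and Egln1 had no named probe. HIF activity is set largely by protein stability, which an RNA array does not measure.

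Of 15 glycolysis genes tested, 1 fell (6.67%, against 9.85% of all genes) and 1 rose, with a median of -0.04 against -0.05 over all genes. Eno2, an enolase, was lower by -0.60 ± 0.11 (adjusted p = 0.0174), though not past the threshold with any single day left out (0.0559 to 0.0603). Pfkl, a phosphofructokinase subunit, was higher by 0.48 ± 0.10 (adjusted p = 0.0297), but did not pass without day 4 (0.158), without day 6 (0.103) or with no replicate block (0.108). Pgk1, a HIF target of lower glycolysis, differed by -0.03 ± 0.09 (adjusted p = 0.854), and Ldha, lactate dehydrogenase A, by -0.19 ± 0.10 (0.223). The lactate transporter Slc16a1 (MCT1), of the same family as Slc16a3, differed by -0.01 ± 0.10 (0.944). The glucose transporter Slc2a1 was below the filter. The 13 genes not called ran from -0.30 (Aldoa) to 0.24 (Ldhb).

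Of 7 genes of pyruvate use and mitochondrial adaptation, 0 passed with limma and 3 had an unadjusted p under 0.05 (median 0.01). Of all genes 19.6% passed. Pdk1, a HIF-induced kinase of pyruvate dehydrogenase, was higher in M337V on all 3 days by 0.37 ± 0.10 (SE) without passing (adjusted p = 0.051). It passed in 7 of 15 alternatives (0.00743 to 0.223). Bnip3l, the paralog of Bnip3, was at -0.40 ± 0.12 (0.0659) and passed in 6 of 15 (0.0023 to 0.237). These 2 differ in sign.

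Among 24 other hypoxia-inducible genes tested, 10 fell (41.7%) and 0 rose, with a median of -0.29. Of all genes 9.85% fell and 9.75% rose, with a median of -0.05. This list too was chosen with earlier results of these data known. Lox, which cross-links collagen, was lower by -1.65 ± 0.11 (adjusted p = 0.00113), the growth factor Tgfb3 by -1.49 ± 0.11 (0.00157), the vasoconstrictor Edn1 by -1.05 ± 0.23 (0.0321) and the collagen prolyl hydroxylase subunit P4ha2 by -1.04 ± 0.19 (0.0193). Of these, Edn1 did not pass without day 4 (0.104) or day 6 (0.0578), nor P4ha2 without day 4 (0.0513). With no replicate block Lox (0.0868) and Tgfb3 (0.0599) did not pass. The remaining 6 were named after their values were seen. They were the transcriptional repressor Bhlhe40 (-0.85), the haem-degrading enzyme Hmox1 (-0.79), P4ha1 (-0.78), the secreted glycoprotein Stc1 (-0.74), the collagen lysyl hydroxylase Plod2 (-0.73) and Ier3 (-0.52). Bhlhe40 (0.0581), P4ha1 (0.0558) and Ier3 (0.127) did not pass without day 4, nor did Ier3 without day 3 (0.0911), with median scaling (0.064), with no replicate block (0.0781) or with day as a linear covariate (0.0621). The count was 5 without day 4, and 5 to 13 over the 15 alternatives. Lox, P4ha1, P4ha2 and Plod2 act on collagen. On the same arrays 5 of the 8 fibroblast and meningeal markers fell, from -0.65 (Col3a1) to -1.88 (Postn). Of the other 3, Lum, not well above background on any tTA array, rose at least 2.54-fold, Igf2 rose at least 3.34-fold, and Ptgds did not pass (adjusted p = 0.11). The part of these markers in the result was not tested. Ankrd37 (0.39 ± 0.10, adjusted p = 0.0528) and Ddit4 (0.34 ± 0.11, 0.0846), named after their values were seen, were higher in M337V on all 3 days without passing.

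**Figure D3:**
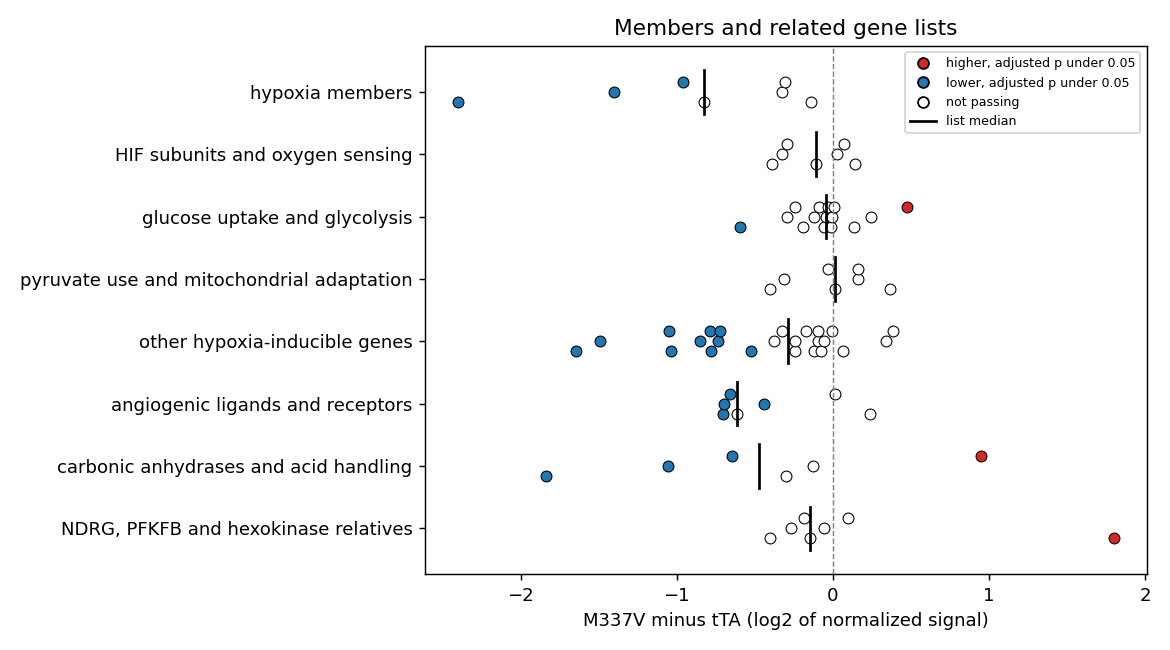
M337V minus tTA (log2 of normalized signal) of each gene tested in the list of members and in 7 related lists, 1 point per gene, coloured where the adjusted p was under 0.05, with a bar at the list median. Falls made up 3 of 7 members, 10 of 24 other hypoxia-inducible genes, 4 of 7 angiogenic genes, 3 of 6 carbonic anhydrase and acid handling genes and 1 of 15 glycolysis genes. Of all genes tested 9.85% fell and 9.75% rose. The lists were chosen with earlier results of these data known and were not tested against each other.

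Of 7 angiogenic ligands and receptors tested, 4 fell (57.1%, against 9.85% of all genes) and 0 rose (against 9.75%), with a median of -0.61. Ramp3, a partner of the adrenomedullin receptor, was lower by -0.70 ± 0.14 (adjusted p = 0.0251), the ligand Angpt1 by -0.70 ± 0.17 (0.0441), and the VEGF relatives Vegfb by -0.66 ± 0.11 (0.0137) and Vegfc by -0.44 ± 0.10 (0.0371). Without day 4 none of the 4 passed (adjusted p of 0.0523, 0.164, 0.0715 and 0.178). Ramp3 and Vegfc also did not pass without day 3 (0.0605 and 0.0563) or day 6 (0.0607 and 0.129), nor Angpt1 without day 3 (0.125), with median scaling (0.0539), with cyclic loess (0.0807) or without the filter (0.0605). Vegfc did not pass with no replicate block (0.221) or with median scaling (0.14) either. Vegfb and Vegfc were lower on each M337V array than on the tTA array of that day, while the dim Vegfa was so on days 3 and 4 but not on day 6 (0.02).

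Car9 was not alone among genes of the carbonic anhydrase family. Of 6 genes tested of the list of carbonic anhydrases and acid handling, 3 fell and 1 rose (median -0.47). Of all genes 9.85% fell and 9.75% rose. Car3, a muscle and fat isoform, was lower by -1.84 ± 0.22 (adjusted p = 0.00577, but 0.274 with no replicate block), Car8 by -1.06 ± 0.19 (0.0175) and the mitochondrial Car5b by -0.65 ± 0.11 (0.0159). Car2, the cytosolic isoform abundant in oligodendrocytes, was higher by 0.95 ± 0.19 (0.0229), or at least 1.91-fold with its 1 undetected tTA array at the lowest detected signal. Car8 and Car2 did not pass without day 3 (0.0613 and 0.0689) or day 4 (0.075 and 0.0969), and Car5b did not pass without day 3 (0.0527), without day 6 (0.0509) or with median scaling (0.0618). Against 9.85% and 9.75% of all genes, 0 of 7 relatives of Ndrg1, Pfkfb3, Hk2 and Bnip3 fell and 1 rose. That gene was Hk3, a hexokinase of myeloid cells, higher by 1.80 ± 0.13 (adjusted p = 0.00123) and at least 3.21-fold with its undetected tTA array bounded likewise. Microglia markers rose on the same arrays, and their part in the rise of Hk3 was not tested. The Ndrg1 relatives Ndrg2, Ndrg3 and Ndrg4 differed by 0.10 ± 0.12, -0.14 ± 0.13 and -0.18 ± 0.11 and none passed (adjusted p 0.286 to 0.621). Ndrg1 was thus the only one of the 4 NDRG genes called here.

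The genes most like Car9 over the 6 arrays, of 7573 compared, were Glmp (r = 0.999), Sparc, Pros1, Itga11 and Pappa (0.993). All 5 were lower in M337V, by -0.45 (Sparc) to -3.57 (Itga11). Since Car9 itself splits the arrays by genotype, the choice by likeness to it set this direction in advance. The M337V values of Car9 on days 4 and 6, which also shaped the ranking, were not above background. Sparc did not pass with any single day left out (0.0649 to 0.182), Glmp without day 3 (0.0569) or day 4 (0.102), and Pros1 without day 4 (0.0873). The genes most like the mean of the 7 members were Vamp5 (r = 0.998), Slc37a4, Tmem63a, Rnf113a2 and Gsk3b (0.995), of which Tmem63a (adjusted p = 0.0705) and Gsk3b (0.0744) did not pass, nor Slc37a4 without day 3 (0.0541) or day 4 (0.1). With 6 arrays, r was over 0.95 for 218 genes against Car9 and for 153 against the mean.

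**Figure D4:**
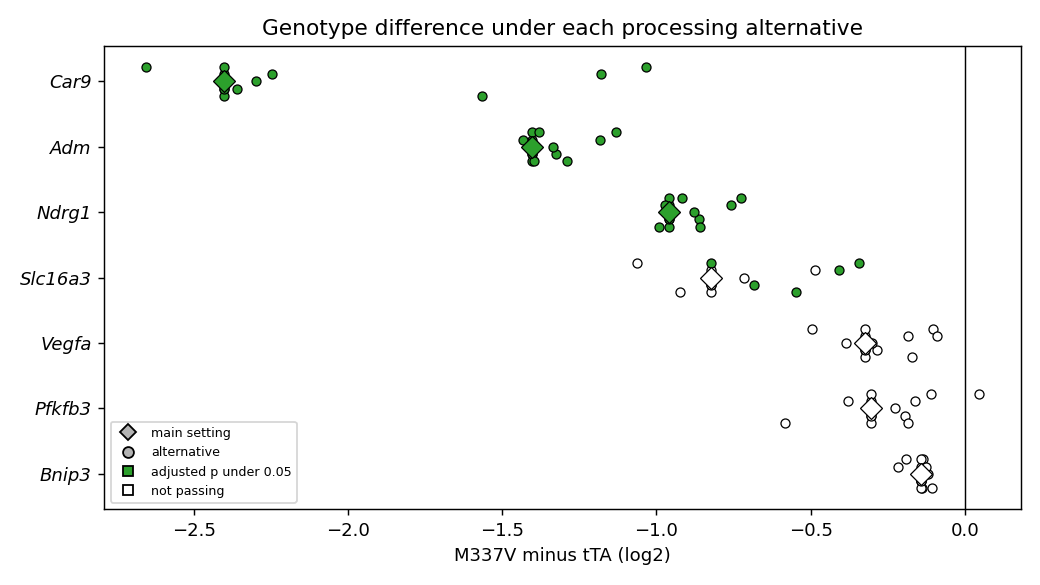
M337V minus tTA (log2) of the 7 members under the main setting (diamonds) and each alternative (circles), green where the adjusted p was under 0.05. Car9, Adm and Ndrg1 are green and below 0 in every setting that tested them, Slc16a3 is green in 6 of 15 alternatives, and Vegfa, Pfkfb3 and Bnip3 in none.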

How the data were processed

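Total RNA was extracted, amplified, biotin-labelled and run on Illumina rat beadchips by direct hybridisation, per the labels' protocols and the series' design text. The authors' deposited table of signals holds a mean bead signal intensity per probe (linear, not normalized) and a detection p-value per probe against negative control beads, per the file headers. GenomeStudio produced them, per the submitters' processing notes (no version given). The deposited value table holds log2 values whose differences between arrays equal log2 signal minus the array's upper quartile, within 0.00215. Their centring per probe is unknown, since the 6-array median is 0 for only 1964 of 22523 probes, and column medians were -0.15 to 0.07.

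Background was corrected with normexp from the detection p-values, an offset of 16 was added, and log2 values were quantile-normalized (limma 3.58.1, R 4.3.3). The offset shrinks differences of dim probes. Probes with 1 platform gene symbol (13793) and a detection p under 0.05 on at least 3 arrays were kept, and the brightest stood for a gene (7580 genes). lmFit and eBayes were fitted with day as a factor and genotype (2 residual and 3.53 prior degrees of freedom), and slopes with 1 residual and 4.71 prior, with Benjamini-Hochberg adjustment over all genes. SE and p are moderated, so they lean on the spread of other genes. The number of arrays limits the precision. The day pairs the arrays, per the labels. Deviations of array pairs from their group means correlated at 0.44, 0.08 and 0.42 on days 3, 4 and 6. The fits were tested on simulated data. Where a probe was undetected, "at least" bounds use the lowest detected level of each such array in the main setting, and hold for that setting only.

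The members and lists were chosen with earlier results of these data known. Named genes were the members, preset HIF and glycolysis genes, up to 4 called genes per list with the largest differences, Tardbp, Gfap and the 5 genes most like Car9 and most like the members' mean, and exceptions are marked. Gfap differed by 0.06 ± 0.10 (adjusted p = 0.724). Alternatives changed the scaling, background, offset, filter, probe choice, variance model and day term, or left out a day.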

Additional observations from a re-analysis of the deposited data

How the results depend on the processing

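Car9, Adm and Ndrg1 stayed lower in M337V and past the threshold in all 14, 15 and 15 alternatives run for them, with adjusted p up to 0.00774, 0.0098 and 0.0273. Without the replicate block (the day) 3 members passed, as in the main setting, and 3 or 4 did in every alternative. The filter that asks for detection on all 6 arrays dropped Car9 and Vegfa. The count of all genes called for genotype was 1486, 966 with no replicate block and 631 to 1055 with a day left out, lowest without day 4. The day effect, 215 genes, was 634 with median scaling, 698 with the deposited values, 793 without background correction, 597 with offset 50, 493 with detection on all arrays, 927 with a variance trend and 1 without day 4. For these first 6 settings in turn 2, 3, 2, 2, 2 and 2 members passed, against 0. The slope, 0 genes, gave 195, 189, 248, 254, 8 and 193 in the same settings and 1 without the filter. The cause of these changes was not tested. The day effect could not be fitted without day 3 or 6, nor the slope without any day.

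Signs turned only where no test passed. Pfkfb3 was 0.046 without day 4, and its day effect 0.11 with median scaling. Epas1 was -0.049 with the deposited values, -0.13 without day 3 and -0.069 without day 4. Vhl was -0.061 with the deposited values, Slc16a1 0.012 without day 3, and Gfap -0.029 with median scaling and -0.11 with the deposited values. Slopes turned for Adm (0.10) and Bnip3 (0.091) with median scaling, for Ndrg1 (-0.0068) and Vegfa (-0.025) with the deposited values, and for Ndrg1 without background correction (-0.0034). Dim probes (Car9 and Slc16a3 in M337V, Vegfa, Pfkfb3, Hk2) are limited by background.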
